A study of Mus musculus with 8 samples.

Results

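The tumour necrosis factor (TNF) receptor genes that costimulate or restrain T cells were examined together with Traf1, an adaptor that several of these receptors recruit. The set is Tnfrsf4 (OX40), Tnfrsf9 (CD137), Tnfrsf18 (GITR), Cd27, Tnfrsf8 (CD30), Tnfrsf1a (TNFR1), Tnfrsf1b (TNFR2) and Traf1. Members were found by gene symbol in the annotation of the array's probe sets. The 8 genes had 12 probe sets among 45037, and all 12 stayed in after dim probe sets were left out. They are 8 of the 12520 genes tested.

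Killer T cells of the CD8 lineage came from spleens of C57BL/6 mice and spent 18 h in culture with dendritic cells, at a ratio of 10 T cells to 1 dendritic cell. Each of 4 groups had 2 arrays. Per the labels, the p50 cRel double knockout cells (DKO N4) lack 2 NF-kB subunits, the PKCθ knockout cells (PKCθ KO N4) lack protein kinase C theta, which links the antigen receptor to NF-kB, and both were cultured with dendritic cells carrying N4, the ovalbumin peptide. Wild-type cells were cultured with N4-carrying dendritic cells (WT N4) or with dendritic cells without peptide (WT non-pulsed). All 4 groups had splenic CD8 T cells picked by positive selection and dendritic cells grown from bone marrow, which were taken out through CD11c before RNA was made. No knockout cells were cultured without peptide. The sources used here do not give the antigen receptor of the T cells, the genotype of the dendritic cells, the age and sex of the mice or how the alleles were deleted. They also do not say whether paired arrays stem from different mice, so the p-values measure only the spread between the 2 arrays of a group, which may in part be technical.

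TNF receptors are membrane proteins that trimeric ligands draw into clusters. Their tails bind TRAF adaptors, which switch on NF-kB and MAP kinases, while TNFR1 also carries a death domain. In T cells OX40, CD137 and GITR are known to appear at the surface after the antigen receptor is engaged and to sustain division and survival, whereas CD27 and the TNF receptors are already made by resting cells.

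The values are array signals on a linear scale, with each array scaled to the same trimmed mean of 500, and differences are on the scale of log2(signal + 16). A gene is said to have risen or fallen where limma's Benjamini-Hochberg adjusted p over the 12520 genes was under 0.05. Signals of different probe sets were not set against each other, since probes differ in brightness. The median signal of the arrays lay between 33.8 and 70.5, and the ratio of 3′ to 5′ signal of the Gapdh control lay between 0.778 and 0.861. Rel, one of the genes deleted in the double knockout, had a mean of 6.05 ± 0.19 on the log2 scale in DKO N4 cells and 9.67 ± 0.21 in WT N4 cells (SD, n = 2 each), a fall of 3.62 with an adjusted p of 0.000984 by limma. The other subunit gene, Nfkb1, was not checked, as the annotation used here names it for no probe set. Prkcq, the gene of PKCθ, read 10.88 ± 0.18 in PKCθ KO N4 cells and 11.54 ± 0.28 in WT N4 cells (adjusted p = 1.00), so its probe set did not check the label of that knockout. Sex-linked genes differed between the arrays. Eif2s3y, on the Y chromosome, read between 5.42 and 6.73 on the 4 knockout arrays and between 10.65 and 11.20 on the 4 wild-type arrays. Xist, made by the inactive X chromosome, read between 12.27 and 12.57 on the knockout arrays, 5.18 and 6.65 on the WT N4 arrays, and 6.05 and 11.84 on the WT non-pulsed arrays. Genotype and sex-linked signal cannot be told apart in the comparisons of a knockout with wild type. In the comparison of WT N4 with WT non-pulsed cells, the WT non-pulsed array at 11.84 also lay above both WT N4 arrays in Xist. The part of this in the levels of the members was not tested.

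Of the 8 genes, 5 changed when WT cells met N4: Tnfrsf4, Tnfrsf9 and Tnfrsf18 rose, and Tnfrsf1a and Tnfrsf1b fell. Across all genes 40.7% were called in this comparison, with 17.2% higher and 23.5% lower, so the share of members called, 5 of 8, stands against a high background. The arrays of the groups did not overlap for 6 members, against 68.4% of all genes, and 5 members had an unadjusted p under 0.05, against 48.4%. The median difference was 0.30 over the 8 members and -0.10 over all genes. Cd27, Tnfrsf8 and Traf1 did not pass the test.

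The 250 bases before the annotated start of the 5 changed genes are shown because NF-kB subunits, 2 of which the double knockout lacks, bind DNA in such stretches. The sequences are from RefSeq, build GRCm38.p6, and 3 motifs were searched on both strands: an NF-kB-type motif of GGG and CC parted by 5 bases of any kind, an AP-1-type TGANTCA and an NFAT-type GGAAA. Capitals mark the matches, and overlapping matches form 1 run. Among 32851 annotated promoters of this length, 45.8% held the NF-kB-type motif, 6.75% the AP-1-type and 55.6% the NFAT-type. Tnfrsf9 has 2 annotated starts, and the arrays do not tell which was used.
Tnfrsf4, chr4:156013445-156013694, plus strand: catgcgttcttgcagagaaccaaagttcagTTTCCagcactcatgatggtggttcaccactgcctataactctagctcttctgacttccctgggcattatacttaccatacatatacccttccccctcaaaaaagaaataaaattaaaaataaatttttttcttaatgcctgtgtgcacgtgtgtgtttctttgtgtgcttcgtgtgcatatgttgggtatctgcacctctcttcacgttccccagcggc
Tnfrsf9 start site 1, chr4:150919905-150920154, plus strand: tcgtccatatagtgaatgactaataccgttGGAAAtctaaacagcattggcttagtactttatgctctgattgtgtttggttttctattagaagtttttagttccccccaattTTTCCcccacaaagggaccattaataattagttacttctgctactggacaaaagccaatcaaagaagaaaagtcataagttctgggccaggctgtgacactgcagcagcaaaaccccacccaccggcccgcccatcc
Tnfrsf9 start site 2, chr4:150927749-150927998, plus strand: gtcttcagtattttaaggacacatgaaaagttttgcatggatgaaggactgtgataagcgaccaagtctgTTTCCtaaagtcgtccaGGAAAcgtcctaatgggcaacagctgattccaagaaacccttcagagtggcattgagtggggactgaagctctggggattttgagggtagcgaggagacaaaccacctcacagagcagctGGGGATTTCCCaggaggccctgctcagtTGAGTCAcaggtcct
Tnfrsf18, chr4:156026072-156026321, plus strand: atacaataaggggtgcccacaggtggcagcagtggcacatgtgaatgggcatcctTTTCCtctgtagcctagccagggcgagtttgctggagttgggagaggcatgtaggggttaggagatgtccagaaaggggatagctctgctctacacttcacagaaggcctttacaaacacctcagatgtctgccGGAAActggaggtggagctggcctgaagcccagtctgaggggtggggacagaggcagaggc
Tnfrsf1a, chr6:125349473-125349722, plus strand: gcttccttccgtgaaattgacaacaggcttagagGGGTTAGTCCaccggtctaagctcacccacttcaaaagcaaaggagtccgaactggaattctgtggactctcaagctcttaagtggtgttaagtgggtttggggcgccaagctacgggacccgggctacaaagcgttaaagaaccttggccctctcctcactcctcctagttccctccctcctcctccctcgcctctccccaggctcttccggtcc
Tnfrsf1b, chr4:145246871-145247120, minus strand: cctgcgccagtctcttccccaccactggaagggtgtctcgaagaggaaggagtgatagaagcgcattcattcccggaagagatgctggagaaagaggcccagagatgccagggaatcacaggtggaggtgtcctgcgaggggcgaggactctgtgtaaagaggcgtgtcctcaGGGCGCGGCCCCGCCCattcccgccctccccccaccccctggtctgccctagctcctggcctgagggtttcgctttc

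The promoter of Tnfrsf4 held an NFAT-type match and neither of the other motifs. In Tnfrsf9 the windows differed. The first had 2 NFAT-type matches. The second had GGGGATTTCC at positions -43 to -34 and, shifted by 1 base, GGGATTTCCC at -42 to -33, and TGAGTCA at -15 to -9. It also had 3 NFAT-type matches, 1 of them inside the NF-kB-type run. Tnfrsf18 had 2 NFAT-type matches. Tnfrsf1a had 1 NF-kB-type match, at -216 to -207, and Tnfrsf1b had 3 that overlap, between -77 and -62. The windows of the members that did not pass, not shown, also held matches. Tnfrsf8 had 4 of the NF-kB-type, which overlap between -168 and -158 and between -32 and -22, and 1 of the AP-1-type. Cd27 had 2 of the NF-kB-type, which overlap between -84 and -74, and 1 of the NFAT-type, and Traf1 had 1 of the NFAT-type. Tnfrsf4 and Tnfrsf18, which rose, had no NF-kB-type match. All of these are matches of letters and not sites shown to be bound.

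Tnfrsf4 encodes OX40, which prolongs the survival of activated T cells. Its signal was 2226 and 1958 in DKO N4 cells, 1638 and 1828 in PKCθ KO N4 cells, 4172 and 3644 in WT N4 cells, and 486 and 872 in WT non-pulsed cells. No 2 groups overlapped, and the order of the levels was WT N4, DKO N4, PKCθ KO N4 and WT non-pulsed. With N4, WT cells had 5.86-fold more than WT non-pulsed cells, a difference of 2.55 (SE 0.25, adjusted p = 0.000121, limma, n = 2 each). The 2 knockouts stood next to each other in the order and differed by 0.27 (adjusted p = 0.936).

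Tnfrsf9 encodes CD137, a receptor that drives CD8 T cell division and mitochondrial metabolism. It read 7930 and 7312 in DKO N4 cells, 6513 and 9317 in PKCθ KO N4 cells, 5455 and 7526 in WT N4 cells, and 613 and 1842 in WT non-pulsed cells. The 3 groups with N4 overlapped, and each of their arrays was above both WT non-pulsed arrays. The difference of WT N4 from WT non-pulsed was 2.57 (SE 0.43, adjusted p = 0.00172 by limma), a 5.94-fold higher level. A second probe set of the gene, with signals of 3976 and 5401 in WT N4 cells and 134 and 558 in WT non-pulsed cells, gave 3.99 (adjusted p = 0.00118 over all probe sets), while the third was dim, between 20.4 and 48.2 on all arrays, and gave 0.09 (adjusted p = 0.894).

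Tnfrsf18 encodes GITR, a costimulator of effector cells that regulatory T cells also carry in quantity. Its signal was 3898 and 2972 in DKO N4 cells, 4690 and 6734 in PKCθ KO N4 cells, 5292 and 6426 in WT N4 cells, and 1060 and 1954 in WT non-pulsed cells. PKCθ KO N4 and WT N4 overlapped at the top, DKO N4 lay below both, and WT non-pulsed was lowest. WT N4 cells had 4.02-fold more than WT non-pulsed cells, a difference of 2.01 (SE 0.29, adjusted p = 0.000891 by limma).

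In all 3 of these genes the second WT non-pulsed array read higher than the first. In WT N4 and PKCθ KO N4 cells too, the second array was higher for Tnfrsf9 and Tnfrsf18. In DKO N4 cells it was lower for all 3 genes. The second WT non-pulsed array also had the higher Ikzf2, a gene made by regulatory T cells, at 11.16 against 9.11 on the log2 scale. Its sum over the 4 measured CD4 and regulatory T cell markers was higher, at 3170 against 1132. Ikzf2 is part of that sum, so the sum is not separate from the gene. Of the 7 markers in that list, 6 were named on the array and 4 stayed in after dim probe sets were left out. Cd4, Foxp3 and Lrrc32 were not among those 4, so some of them were on the array but dim. Without 1 WT non-pulsed array or the other, the rise with N4 in WT cells was 2.14 or 2.96 for Tnfrsf4, 1.79 or 3.35 for Tnfrsf9 and 1.57 or 2.44 for Tnfrsf18. The part of such cells in these levels was not tested.

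**Figure D1:**
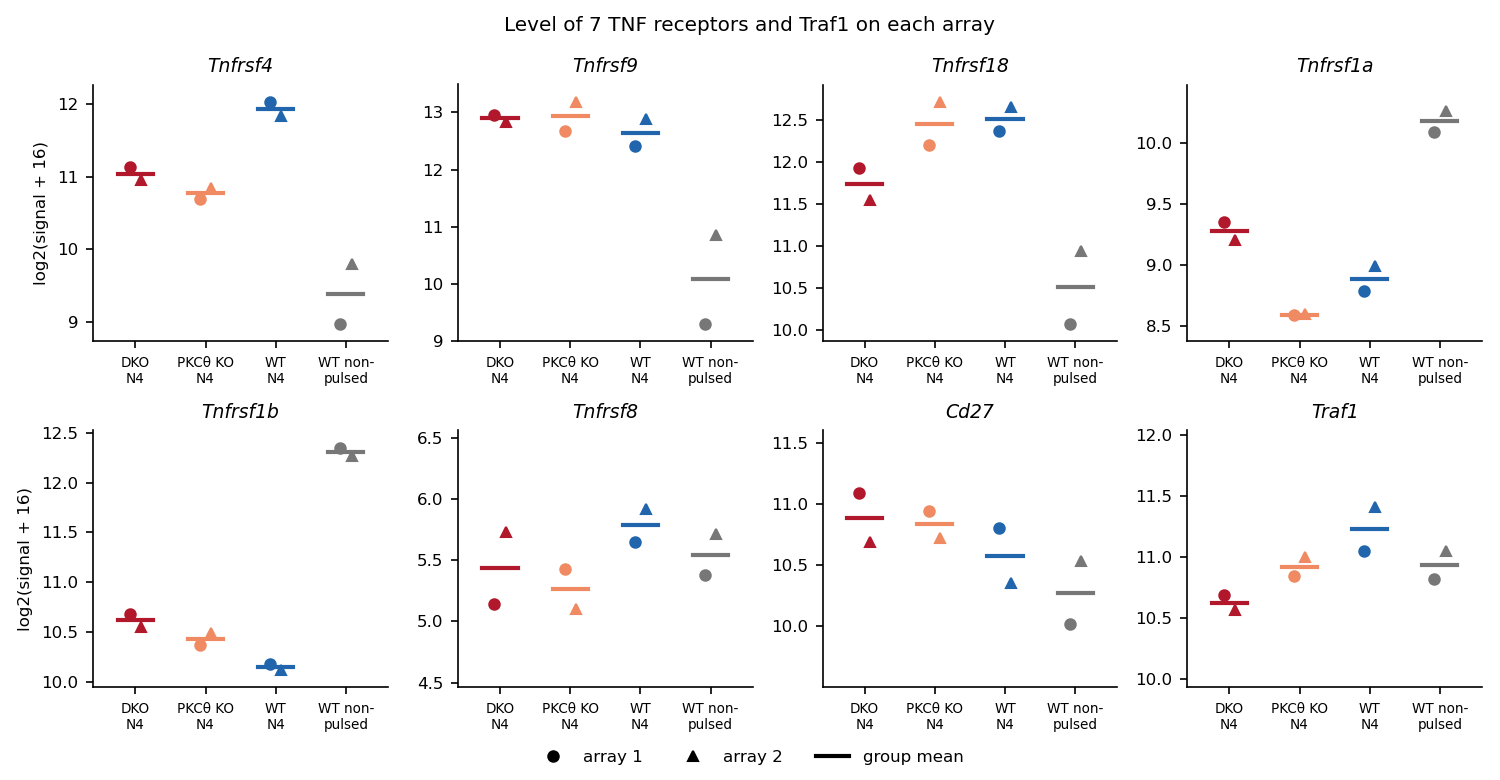
Level of each of the 8 genes as log2(signal + 16) on every array (points) with the mean of the 2 arrays of a group (lines), for DKO N4, PKCθ KO N4, WT N4 and WT non-pulsed cells. Tnfrsf4, Tnfrsf9 and Tnfrsf18 lie lowest in WT non-pulsed cells, and Tnfrsf1a and Tnfrsf1b lie highest there.

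Both receptors of TNF itself fell with N4. Tnfrsf1b encodes TNFR2, which costimulates T cells and has no death domain. Its signal was 1628 and 1490 in DKO N4 cells, 1310 and 1420 in PKCθ KO N4 cells, 1144 and 1100 in WT N4 cells, and 5203 and 4913 in WT non-pulsed cells. No groups overlapped, and WT N4 was the lowest of the 4. WT N4 cells had 4.46-fold less than WT non-pulsed cells, a difference of -2.16 (SE 0.13, adjusted p = 2.09e-05 by limma). A second probe set gave -0.82 (SE 0.23, adjusted p = 0.0266 over all probe sets).

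Tnfrsf1a encodes TNFR1, the death domain receptor found on most cell types. It read 637 and 573 in DKO N4 cells, 369 and 371 in PKCθ KO N4 cells, 425 and 493 in WT N4 cells, and 1072 and 1213 in WT non-pulsed cells. Again no groups overlapped, but here PKCθ KO N4 was the lowest. The fall with N4 was 1.29 in WT cells (SE 0.17, adjusted p = 0.000555 by limma), a 2.44-fold lower level.

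Markers of other cells fell in the same comparison, where 17.2% of all genes were called higher and 23.5% lower. The 14 dendritic cell and macrophage markers summed to between 3917 and 13532 in WT N4 cells and between 76231 and 96791 in WT non-pulsed cells, and 14 of 14 fell (13 with quantile normalization or median centring). For the 9 B cell markers the sums were 568 to 2214 in WT N4 cells and 27918 to 40889 in WT non-pulsed cells, with 9 of 9 lower. For the 7 neutrophil markers they were 306 to 878 in WT N4 cells and 23938 to 26303 in WT non-pulsed cells, with 7 of 7 lower. Their dimmest members in WT N4 cells were Flt3 at 13.0, Pax5 at 4.6 and S100a9 at 2.9, near the bottom of the signal scale. The NK cell markers summed to between 769 and 1237 in WT N4 cells and between 11628 and 17732 in WT non-pulsed cells, with 2 of 4 lower. Tnfrsf1a and Tnfrsf1b are also made by myeloid cells, and the part of other cells in their levels was not tested. In bulk RNA, fewer cells of a type and less RNA per cell cannot be told apart. The 7 CD8 T cell markers summed to between 40920 and 45425 in WT N4 cells and between 34762 and 36838 in WT non-pulsed cells, with Cd2, Cd8a and Thy1 higher. The other 4 did not pass, and the median difference of the 7 was 0.0055, against -0.10 over all genes.

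**Figure D2:**
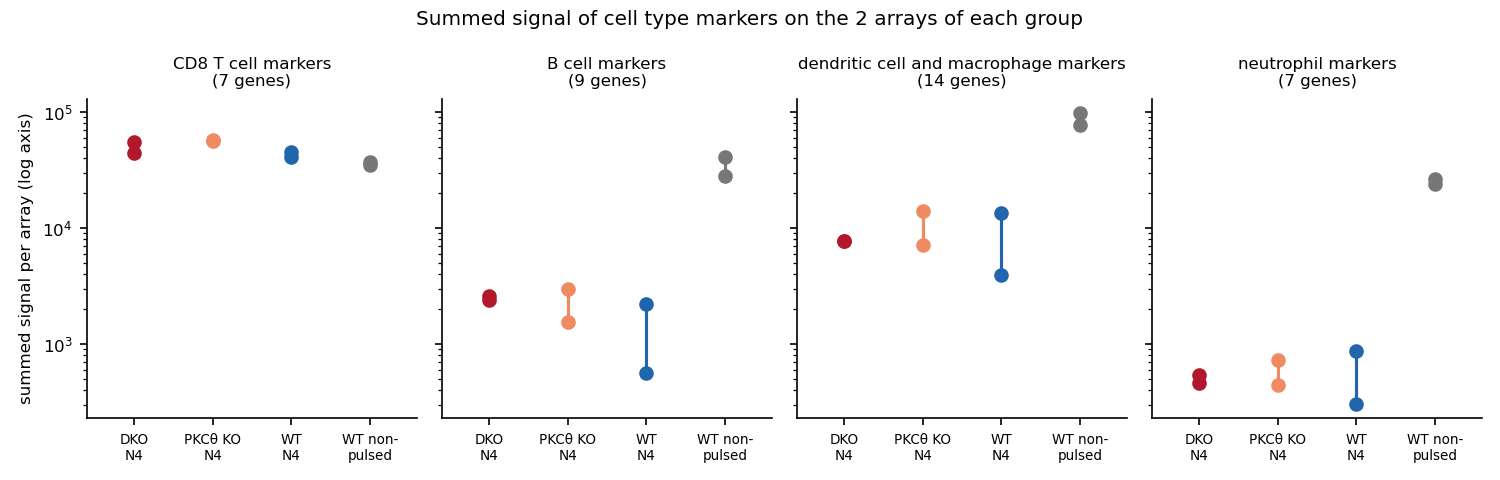
Summed signal of CD8 T cell, B cell, dendritic cell and macrophage, and neutrophil markers on every array (points; a line joins the 2 of a group), on a log axis, for DKO N4, PKCθ KO N4, WT N4 and WT non-pulsed cells. Dendritic cell and macrophage, B cell and neutrophil sums are higher on both WT non-pulsed arrays than on any array with N4.

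Cd27 encodes a receptor that resting T cells already carry and whose ligand is CD70. Its signal was 2163 and 1634 in DKO N4 cells, 1958 and 1670 in PKCθ KO N4 cells, 1771 and 1293 in WT N4 cells, and 1020 and 1463 in WT non-pulsed cells. WT N4 and WT non-pulsed overlapped, and their difference of 0.30 did not pass (SE 0.24, adjusted p = 0.347 by limma). Between the first arrays it was 0.79 and between the second arrays -0.18.

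Tnfrsf8, the gene of CD30, was dim throughout, with 19.4 and 37.2 in DKO N4 cells, 27.2 and 18.4 in PKCθ KO N4 cells, 34.3 and 44.6 in WT N4 cells, and 25.7 and 36.4 in WT non-pulsed cells. Its mean of 5.51 lay just above the limit of 5.38 for dim probe sets. The difference of WT N4 from WT non-pulsed was 0.24 (adjusted p = 0.651 by limma), and no firm statement on CD30 can be made at this brightness.

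Traf1, an adaptor that binds TRAF2 and the inhibitor of apoptosis proteins, read 1638 and 1499 in DKO N4 cells, 1820 and 2032 in PKCθ KO N4 cells, 2108 and 2703 in WT N4 cells, and 1794 and 2099 in WT non-pulsed cells. WT N4 was highest and did not overlap WT non-pulsed, yet the difference of 0.30 did not pass (SE 0.17, adjusted p = 0.199 by limma). A second probe set turned the other way, with 563 and 1168 in WT N4 cells and 995 and 1541 in WT non-pulsed cells, a difference of -0.60 (adjusted p = 0.238 over all probe sets). With the mean of the 2 probe sets the sign turned to -0.15 (adjusted p = 0.673), and with arrays centred on their medians the difference was 0.72 and passed (adjusted p = 0.0095).

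**Figure D3:**
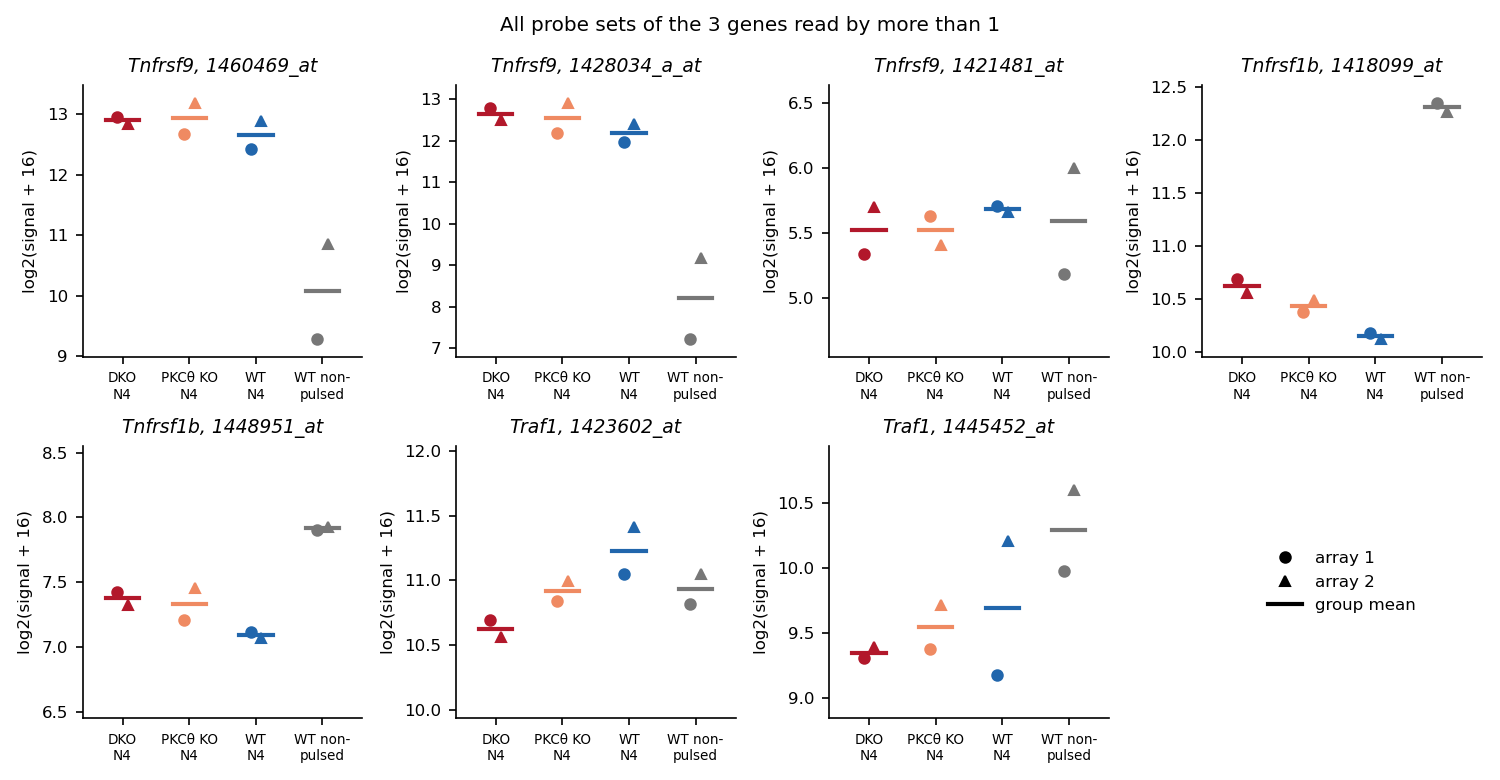
Level as log2(signal + 16) on each array (points) with the group mean (lines) for the probe sets of Tnfrsf9, Tnfrsf1b and Traf1, the 3 genes read by more than 1, in DKO N4, PKCθ KO N4, WT N4 and WT non-pulsed cells. Between WT N4 and WT non-pulsed cells the 2 bright probe sets of Tnfrsf9 are both higher, those of Tnfrsf1b both lower, and the 2 of Traf1 differ in sign, at 0.30 and -0.60.

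Loss of PKCθ was asked with PKCθ KO N4 cells set against WT N4 cells. None of the 8 genes passed, where 0.024% of all genes were called, and 1 member, Tnfrsf4, had an unadjusted p under 0.05, against 2.96% of all genes. The 3 genes called were Eif2s3y, Uty and Kdm5d, all on the Y chromosome and all lower. Tnfrsf4 was 2.24-fold lower in PKCθ KO N4 cells, a difference of -1.16 (SE 0.25, 95% interval -1.73 to -0.60), with an adjusted p of 0.537 by limma. Between equally numbered arrays the differences were -1.34 and -0.99. As the groups did not overlap, any pairing of their arrays gives lower values. Tnfrsf9 differed by 0.28 (interval -0.69 to 1.26) and Tnfrsf18 by -0.05 (interval -0.72 to 0.62), intervals that hold changes of both signs. The other members lay between -0.52 for Tnfrsf8 and 0.28 for Tnfrsf1b. Groups did not overlap for 5 members, against 25.8% of all genes, and the median difference was -0.17 over the members and -0.02 over all genes.

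The double knockout was set against the same WT N4 arrays, so the comparisons of both knockouts share their control. None of the 8 members passed, where 0.519% of all genes were called, and 4 members had an unadjusted p under 0.05, against 6.29% of all genes. These were Tnfrsf4, Tnfrsf18 and Traf1 with lower values and Tnfrsf1b with a higher one. Tnfrsf4 differed by -0.90 (SE 0.25, interval -1.46 to -0.33, adjusted p = 0.280 by limma), a 1.86-fold lower level in DKO N4 cells. Traf1 differed by -0.60 (SE 0.17, adjusted p = 0.289), with the second probe set at -0.35. Tnfrsf18 differed by -0.77 (SE 0.29, adjusted p = 0.600), unlike between the numbered pairs at -0.44 and -1.11. Tnfrsf1b differed by 0.47 (SE 0.13, adjusted p = 0.312) and Tnfrsf1a by 0.39 (adjusted p = 0.798). Tnfrsf9 differed by 0.25 (interval -0.73 to 1.22). The median difference was -0.05 over the members and -0.00 over all genes, and groups did not overlap for 5 members, against 30.5% of all genes.

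Beside these values, the CD4 and regulatory T cell markers summed to between 549 and 687 in DKO N4 cells, 1189 and 1365 in PKCθ KO N4 cells, and 1089 and 2133 in WT N4 cells, and none of the 4 passed in either knockout. The dendritic cell and macrophage sums were 7728 to 7751 in DKO N4 cells, 7129 to 13898 in PKCθ KO N4 cells and 3917 to 13532 in WT N4 cells, and no marker of these, B cells, neutrophils or NK cells passed in a comparison of a knockout with WT N4. The CD8 T cell markers summed to between 44369 and 55435 in DKO N4 cells, 56471 and 56597 in PKCθ KO N4 cells, and 40920 and 45425 in WT N4 cells, with Cd2 alone of the 7 passing, at -0.98 in DKO N4 cells (adjusted p = 0.0206 by limma). That call was lost under 6 of 18 alternatives (median centring, no mean-variance trend, and without any 1 of the WT N4 and DKO N4 arrays), with adjusted p up to 0.205. The part of other cells in the lower Tnfrsf4 and Tnfrsf18 was not tested.

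**Figure D4:**
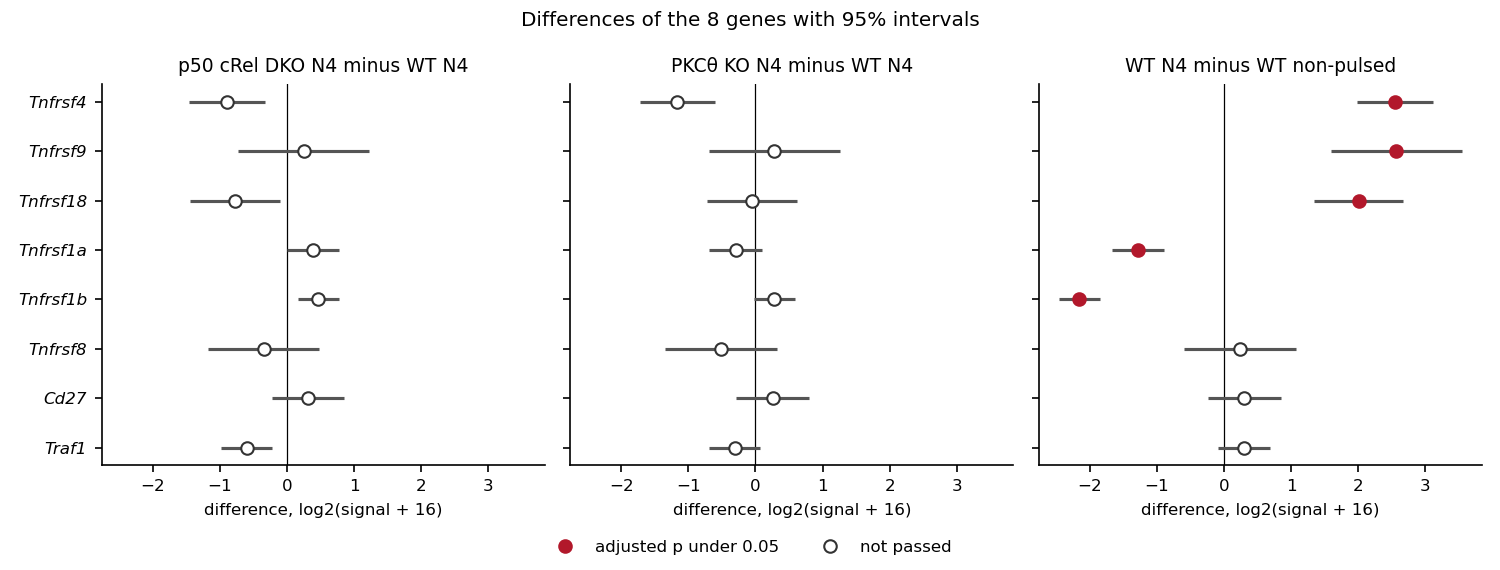
Difference in log2(signal + 16) of each of the 8 genes in DKO N4 minus WT N4, PKCθ KO N4 minus WT N4 and WT N4 minus WT non-pulsed cells, with 95% intervals from limma (n = 2 arrays a group). Filled points passed an adjusted p of 0.05: 5 genes with N4 and 0 in either knockout.

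Set against each other, DKO N4 and PKCθ KO N4 cells differed in no member by the adjusted test, where 0.431% of all genes were called. Unadjusted p-values under 0.05 were seen for Tnfrsf1a and Tnfrsf18, against 7.16% of all genes. Tnfrsf1a was higher in DKO N4 than in PKCθ KO N4 cells by 0.69 (SE 0.17, adjusted p = 0.239 by limma), and Tnfrsf18 differed by -0.72 (adjusted p = 0.654). Tnfrsf9 differed by -0.03 and Tnfrsf1b by 0.19. The arrays did not overlap for 5 members, against 33.9% of all genes, and the median difference was 0.11 over the members and 0.02 over all genes.

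Each knockout with N4 was also set against WT non-pulsed cells, the level without peptide. In PKCθ KO N4 cells 5 of 8 members were called, where 40.6% of all genes were, and in DKO N4 cells 5 of 8, where 39.3% of all genes were. In both knockouts 3 of these were higher, where 16.5% of all genes were, and 2 were lower, where 24.0% were in PKCθ KO N4 cells and 22.8% in DKO N4 cells. Unadjusted p-values under 0.05 came to 6 members in each knockout, against 48.1% of all genes in PKCθ KO N4 cells and 47.5% in DKO N4 cells. Groups did not overlap for 6 members in PKCθ KO N4 cells, where 68.8% of genes did not, and for 7 in DKO N4 cells, where 70.5% did not. The called members were the same 5 genes as in WT N4 cells, with the same signs, and all of these comparisons share the WT non-pulsed arrays. Tnfrsf9 stood 2.82 above WT non-pulsed cells in DKO N4 cells, 2.85 in PKCθ KO N4 cells and 2.57 in WT N4 cells. For Tnfrsf4 the values were 1.66, 1.39 and 2.55 in that order of groups, and for Tnfrsf18 they were 1.23, 1.95 and 2.01. Tnfrsf1b stood at -1.69 in DKO N4, -1.88 in PKCθ KO N4 and -2.16 in WT N4 cells. Its second probe set passed in neither knockout, at -0.54 in DKO N4 (adjusted p = 0.114 over all probe sets) and -0.58 in PKCθ KO N4 cells (adjusted p = 0.0889). Tnfrsf1a stood at -0.90 in DKO N4, -1.58 in PKCθ KO N4 and -1.29 in WT N4 cells. The call of Tnfrsf18 in DKO N4 cells (adjusted p = 0.0103 by limma) was lost without the first WT non-pulsed array (0.80, adjusted p = 0.0543) or without the first DKO N4 array (1.04, adjusted p = 0.0747). Tnfrsf1a in DKO N4 cells (adjusted p = 0.00347) was lost with median centring (-0.48, adjusted p = 0.0640). Cd27 stood at 0.61 in DKO N4 and 0.56 in PKCθ KO N4 cells and did not pass (adjusted p = 0.0696 in DKO N4 and 0.0928 in PKCθ KO N4 cells). Without the second WT non-pulsed array it passed, at 0.87 in DKO N4 (adjusted p = 0.0402) and 0.82 in PKCθ KO N4 cells (adjusted p = 0.0490), and likewise with median centring, at 1.03 in DKO N4 and 1.01 in PKCθ KO N4 cells.

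The other TNF receptors gave a mixed response to N4, with 2 of 14 measured genes higher and 6 lower in WT N4 cells, beside 17.2% higher and 23.5% lower over all genes. Their median of -0.61 became -0.34 with quantile normalization and -0.19 with median centring, which gave 3 higher and 5 lower. Tnfrsf13c and Tnfrsf13b, the receptors of the B cell survival factors BAFF and APRIL, had differences of -3.80 and -3.44, and Ltbr and Cd40, receptors of stromal and antigen-presenting cells, -2.55 and -2.23. These genes are known chiefly from cells other than T cells, and the B cell and dendritic cell sums fell with them, as given above. The part of other cells in the lower values of these 4 receptors was not tested. Fas, a death receptor, also fell, by 1.26 (adjusted p = 0.00401). The 2 that rose were Tnfrsf10b, the receptor of TRAIL, at 1.49 (adjusted p = 0.012), and Tnfrsf22, a mouse decoy receptor of TRAIL, at 1.03 (adjusted p = 0.0074).

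Tnfrsf25, a death domain receptor of T cells also called DR3, was the 1 other receptor called in the double knockout. It read 6.07 and 6.12 on the log2 scale in DKO N4 cells, 6.89 and 7.70 in PKCθ KO N4 cells, 8.31 and 8.50 in WT N4 cells, and 8.68 and 9.44 in WT non-pulsed cells. The order ran down from WT non-pulsed through WT N4 and PKCθ KO N4 to DKO N4 with no overlap between neighbours. DKO N4 differed from WT N4 by -2.31 (SE 0.34, adjusted p = 0.0248 by limma). The call was lost under 6 of 18 alternatives, among them without any 1 of the WT N4 and DKO N4 arrays, with adjusted p between 0.0575 and 0.248. PKCθ KO N4 differed from WT N4 by -1.11 (adjusted p = 1.00).

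**Figure D5:**
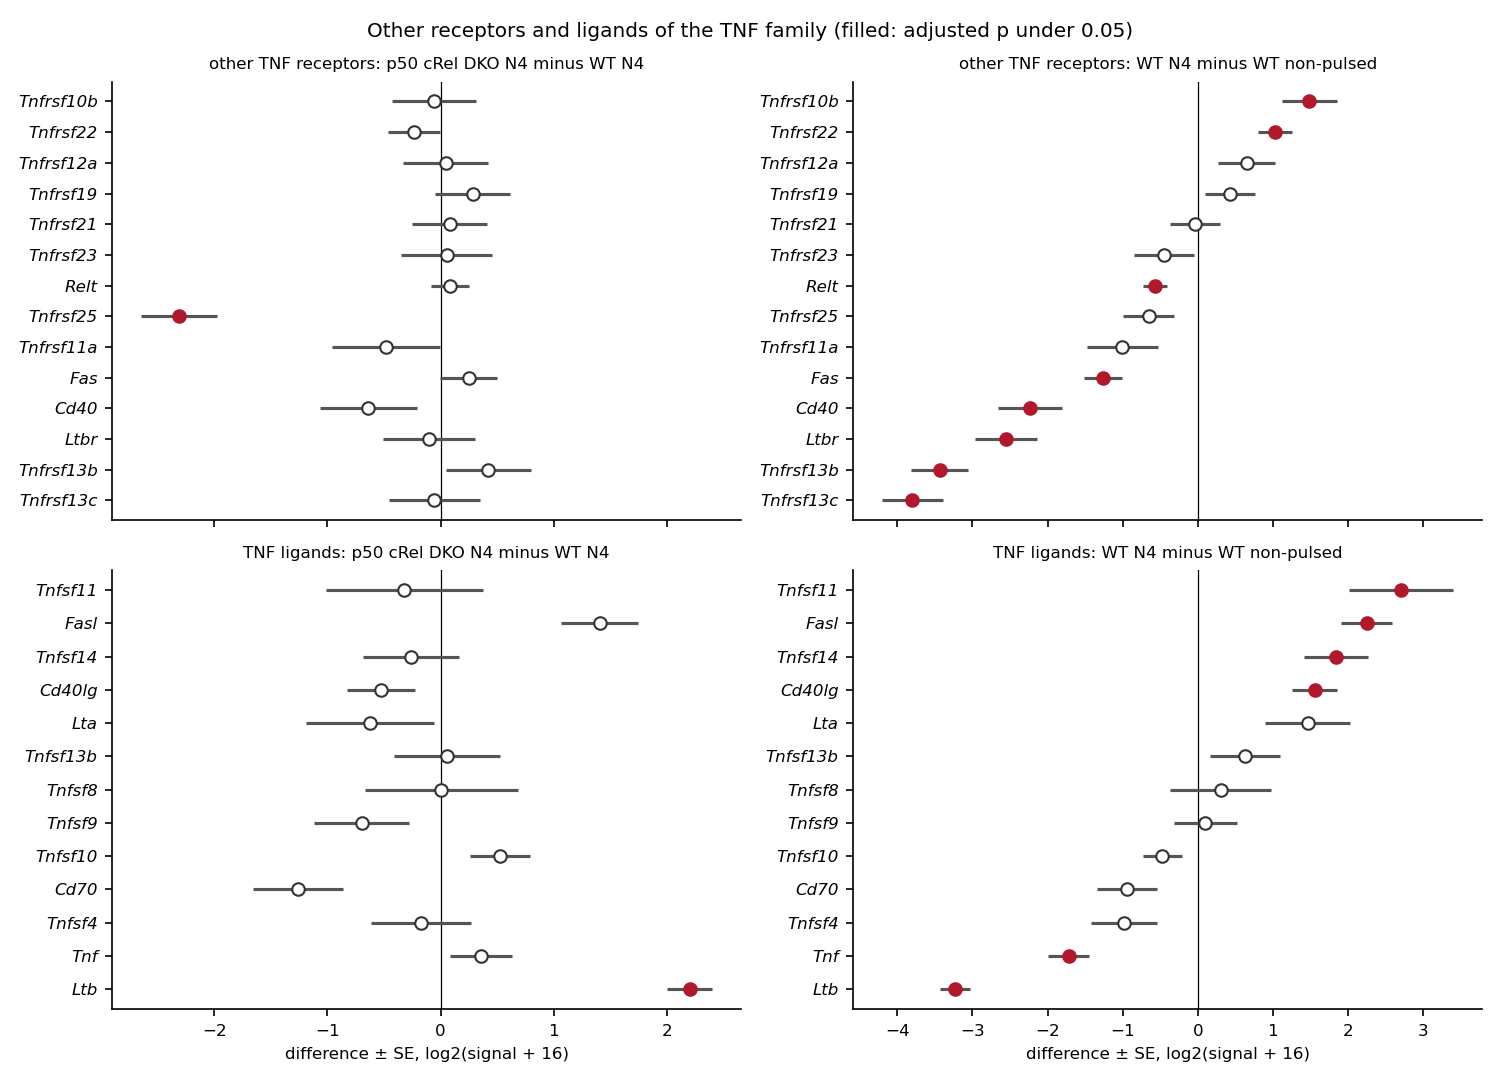
Differences in log2(signal + 16) with their SE (bars) of the 14 other TNF receptors and the 13 TNF ligands measured, in DKO N4 minus WT N4 and in WT N4 minus WT non-pulsed cells. Filled points passed an adjusted p of 0.05: Tnfrsf25 at -2.31 and Ltb at 2.20 in the double knockout, 8 receptors and 6 ligands with N4.

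Of the 13 measured TNF ligands, 4 rose and 2 fell in WT N4 cells, beside 17.2% higher and 23.5% lower over all genes. Fasl and Cd40lg, ligands by which T cells kill targets and help antigen-presenting cells, rose by 2.25 and 1.56, together with Tnfsf14 (LIGHT) at 1.84 and Tnfsf11 (RANKL) at 2.71. Ltb, which makes lymphotoxin with Lta, and Tnf fell by 3.24 and 1.72. Tnf is the ligand of Tnfrsf1a and Tnfrsf1b. The measured ligands of OX40, CD27, CD30 and CD137 did not pass: Tnfsf4, the OX40 ligand, stood at -0.98, Cd70 at -0.94, Tnfsf8, the CD30 ligand, at 0.31, and Tnfsf9, the CD137 ligand, at 0.10. In DKO N4 cells Ltb read 12.67 and 12.16 on the log2 scale, against 10.42 and 10.00 in WT N4 cells, a difference of 2.20 (SE 0.20, adjusted p = 0.00264 by limma) called under all 18 alternatives. PKCθ KO N4 cells read 10.26 and 10.30, next to WT N4. Fasl stood at 1.41 (adjusted p = 0.186) and Cd70 at -1.26 (adjusted p = 0.404) in DKO N4 against WT N4 cells, and neither passed.

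Among 30 measured TRAFs and adaptors, 4 rose and 9 fell with N4 in WT cells, beside 17.2% higher and 23.5% lower over all genes. None passed against WT N4 in either knockout, where 0.024% of all genes were called in PKCθ KO N4 and 0.519% in DKO N4 cells. Traf4 and Siva1, an adaptor that binds CD27 and GITR tails, rose by 1.44 and 1.07, while Traf5, an adaptor of OX40 and CD27, and Birc2, which binds TRAF2 and TRAF1, fell by 1.42 and 1.13. Tnip1, a brake on NF-kB, fell by 1.39. With median centring the split of this list became 6 higher and 5 lower. In the list of NF-kB genes Malt1 rose by 1.45, while Nfkbiz stood at -1.85 and Nfkbie at -1.36. Of its 14 genes 1 rose and 7 fell, beside 17.2% higher and 23.5% lower over all genes. This split became 2 higher and 2 lower with median centring, and the median of the list -0.11 in place of -0.53. In the double knockout Rel was the 1 gene of that list to pass, and Relb stood at 0.93 (adjusted p = 0.142). The median difference of all genes was -0.10 as deposited, 0.09 with quantile normalization and 0.32 with median centring, so differences near this size depend on the scaling. Split between higher and lower calls, the N4 comparison gave 2159 and 2942 genes as deposited, 2670 and 2406 with quantile normalization and 3661 and 1728 with median centring.

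Across the 8 arrays Tnfrsf9 and Tnfrsf18 ran together with Pearson's r of 0.91, Tnfrsf4 with Tnfrsf18 at 0.87 and with Tnfrsf9 at 0.83, and Tnfrsf1a with Tnfrsf1b at 0.92. Tnfrsf1b ran against Tnfrsf4, Tnfrsf9 and Tnfrsf18, at -0.91 with each. These coefficients describe 8 arrays that share 4 groups and 1 scaling. By the same measure over 3822 genes whose group means span at least 1 on the log2 scale, the genes most like Tnfrsf4 were Jag2 (0.97), Adh4 (0.96) and 5430435K18Rik (0.96), and those most like Tnfrsf9 were Bzw2 (1.00), Gtf2ird1 (0.99) and Prkch (0.99). Tnfrsf18 was closest to Pcgf5, Il12rb2 and Serpinb6b (0.98 each), Tnfrsf1a to Ints6l, Ccdc186 and Kcna2 (0.99 each) and Tnfrsf1b to Dock2, Phf1 and Uba7 (1.00 each). Cd27 was closest to Clpx (0.94), Spin2c and Klrk1, Traf1 to Tpbg (0.95), Arap2 and Ttc39c, and Tnfrsf8, at its low signal, to Gm15423 (0.84), H2-M10.1 and Hand1.

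Tnfrsf4 and Tnfrsf18 are neighbouring genes on chromosome 4 in the RefSeq annotation. On the side of Tnfrsf4, Sdf4, B3galt6 and C1qtnf12 also rose with N4 in WT cells, by 0.70, 0.75 and 1.21. Their adjusted p by limma was 0.0123, 0.0405 and 0.000867 in that order, and 17.2% of all genes were called higher in this comparison. Beyond Tnfrsf18, Ttll10 stood at 0.21 and 9430015G10Rik at -0.06, and neither passed. Tnfrsf1b and Tnfrsf8 are neighbours as well, with -2.16 and 0.24 in the N4 comparison. On chromosome 6, Cd27 and Tnfrsf1a flank Ltbr at a distance of a few genes, with 0.30 and -1.29 against -2.55 for Ltbr.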

How the data were processed

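The deposited values are intensity values, 1 linear signal per probe set; the submitters' processing notes name GCOS 1.4 and MAS5 as the authors' tools. Every array had a 2% trimmed mean of 500 in the values themselves. Of 45101 probe sets 64 controls were left out; 34945 had 1 gene symbol, 932 had several and 9160 were unnamed here, and 34741 symbols were matched by Entrez identifier in RefSeq GRCm38.p6. Probe sets under the 40th percentile of mean log2(signal + 16) were left out, which kept 27022, and the probe set with the highest mean stood for each of 12520 genes. All 8 arrays entered 1 limma fit (eBayes with its trend option, 4 residual degrees of freedom; limma version 3.58.1, R 4.3.3). Other probe sets were tested in the same way over all 27022. Groups were read from sample titles. Precision is limited by 2 arrays a group. In simulated data for the p50 cRel comparison, 45 of 100 changes of 2-fold and 92 of 100 of 4-fold were recovered, with 7 false calls among 12520 genes. The simulation drew independent normal noise at the spread limma estimated and planted both sets of changes together. Its recovery therefore need not hold for the real arrays and may be too high. The members and lists were chosen with earlier results of these data known, and genes named from a list are those that passed against WT N4 or up to 4 with the lowest p in a comparison. Fas, Tnfrsf10b, Tnfsf11, Tnfsf14, Traf4, Siva1, Malt1, the ligands of the members and the neighbouring genes were named after their values were seen. Intervals, counts and sums were computed with Python 3.11.15. Depth of counts does not apply to arrays.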

Additional observations from a re-analysis of the deposited data

How the results depend on the processing

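Each result was recomputed under 10 alternatives and with each of 8 arrays left out, which gave 858 values beside the main ones for 48 differences of members: 829 kept their direction and their side of the threshold, 3 lost the call, 6 gained one and 20 changed sign. The number of members called lay between 5 and 6 with N4 in WT cells and in PKCθ KO N4 against WT non-pulsed cells, between 4 and 6 in DKO N4 against WT non-pulsed cells, and at 0 in the comparisons of knockouts with WT N4 and with each other. The 5 calls with N4 in WT cells and the 5 in PKCθ KO N4 against WT non-pulsed cells held under every alternative run. Tnfrsf8 had no value under the 60th percentile filter. Lost calls are given in the results above. Gained calls were Traf1 with N4 under median centring (0.72), Cd27 in PKCθ KO N4 against WT non-pulsed cells under median centring (1.01) and without the second WT non-pulsed array (0.82), and Cd27 in DKO N4 against WT non-pulsed cells under median centring (1.03), the replicate block (0.61) and without that array (0.87). The values that changed sign did not pass: Traf1 with N4 by the mean of its probe sets (-0.15); Tnfrsf9 in DKO N4 against PKCθ KO N4 by quantile normalization (0.0084) and the mean of probe sets (0.019); Tnfrsf8 in PKCθ KO N4 against WT non-pulsed cells by quantile normalization (0.0032) and median centring (0.17), and in DKO N4 against WT non-pulsed cells (0.16 and 0.31); Traf1 against WT non-pulsed cells by median centring (0.44 in PKCθ KO N4 and 0.11 in DKO N4). Leaving out 1 array gave, at the extremes, -0.31 to 0.21 for Tnfrsf18 in PKCθ KO N4 against WT N4 cells; -0.29 to 0.22 for Tnfrsf9, -0.12 to 0.46 for Tnfrsf8 and -0.15 to 0.26 for Cd27 in DKO N4 against PKCθ KO N4 cells; -0.13 to 0.10 for Traf1 in PKCθ KO N4 and -0.40 to 0.19 for Tnfrsf8 in DKO N4 against WT non-pulsed cells. The cause of these changes was not tested. Over all genes, the 65 calls of DKO N4 against WT N4 became 35 with no mean-variance trend, 200 with the replicate block, 15 or 13 without 1 DKO N4 array and 35 or 30 without 1 WT N4 array. The 54 of DKO N4 against PKCθ KO N4 became 28 with no filter, 17 with no trend, 98 with only the 2 groups, 152 with the block, 0 or 2 without 1 DKO N4 array and 34 or 13 without 1 PKCθ KO N4 array. The 3 of PKCθ KO N4 against WT N4 lay between 0 and 5, and the 4917 of DKO N4 against WT non-pulsed cells became 3229 without the first DKO N4 array. For the members, the replicate block kept the number called in 5 of 6 comparisons. It gave 6 in DKO N4 against WT non-pulsed cells, where Cd27 passed (adjusted p = 0.0431 by limma). The deviations of equally numbered arrays correlated at 0.25 to 0.58. The titles of the second arrays end in "Erep 2", but the labels tie no number to a shared batch.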
